A study of Mus musculus with 55 samples.

Results

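The cortex of uninjured mice fed PLX5622, a diet that depletes microglia, was compared with the cortex of uninjured mice fed the same chow without the drug. The members were the 13 mice of 55 whose sample names carry the word Control (called naive here): 6 on PLX5622 (mice 690, 698, 705, 713, 731 and 736) and 7 on vehicle (mice 691, 695, 706, 714, 732, 737 and 742). Mouse 695 has 7d in its sample name, but its own group label is naive, and it was kept with the vehicle mice. All were adult male C57BL/6 mice of 8 to 10 weeks with no genetic change named in the labels. PLX5622, an oral inhibitor of the CSF1 receptor (CSF1R), was mixed into AIN-76A chow at 1200 mg/kg, and vehicle mice ate AIN-76A alone. Injured mice had a diffuse blow to the brain (traumatic brain injury, TBI) after 14 days on their diet and stayed on it to the end, per the labels. For naive mice the sources used here give no time on the diet. The other 42 mice were injured, at 1, 7 or 30 days before collection, and are used at the end of the results and in estimating the spread. RNA of 799 genes was counted by nanoString nCounter, a hybridisation assay with 1 barcoded probe pair per gene and no sequencing, in cortex cut from frozen sections of 200 µm. Regions were found on neighbouring sections of 30 µm stained for CD11b, the protein made from Itgam, so Itgam has no independent standing between the diets. The labels describe those regions as holding enlarged and rod-shaped microglia, and do not say how regions were picked in naive mice. How far the choice of regions bears on the other microglial genes was not tested.

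Microglia are the resident macrophages of the brain and live on signals through CSF1R, a receptor tyrosine kinase whose ligands are CSF1 and IL-34. Blocking the receptor kills most microglia, and they grow back from the survivors once the drug is withdrawn. In healthy cortex they survey synapses and debris with purinergic and fractalkine receptors, make complement C1q, and carry the TREM2 and TYROBP pair that senses lipids and debris.

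Levels are normalised counts, the authors' barcode counts divided by 1 factor per mouse. Total counts were 230246 to 936463 on PLX5622 (median 616932) and 339837 to 899379 on vehicle (median 504376), with no detectable difference (two-sided exact permutation test, p = 0.837). The median gene of a library stood at 135.8 to 177.1 normalised counts on PLX5622 and at 167.8 to 189.1 on vehicle (two-sided exact permutation test, p = 0.0478), and 3 PLX5622 mice (690, 713 and 731) lay below every vehicle mouse. Mouse 698 on PLX5622 had the lowest total count, so 1 count was worth 2.77 normalised counts there against 0.615 in the deepest naive library. As a rough floor, 20 genes of other tissues, picked after seeing the data, had a median of 5.54 in naive mice, and 95% of their values lay below 11.8. That value is called the background level. Fold changes are log2 of the normalised count plus 1, PLX5622 minus vehicle, with their standard error (SE). They understate the change of low genes. A gene was called where limma gave an adjusted p under 0.05, fitted on all 55 mice with the cartridge (the nCounter plate, 5 in all) as a covariate.

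On PLX5622 27 genes were lower (3.38% of 799) and 0 were higher (0.0%) than on vehicle. At an unadjusted p under 0.05 the counts in limma were 75 lower (9.39%) and 0 higher, and DESeq2 and edgeR each called 25 lower, all among the 27, and 0 higher. Of the 27, 7 were homeostatic genes of microglia, 5 complement genes, 3 genes of the CSF1 receptor axis, 3 phagocyte receptors or lysosomal genes, 4 genes of innate sensing, and 5 were on none of these lists. On PLX5622 the group means stood between 2.19% (C1qa) and 60.3% (P2rx7) of the vehicle mean, with a median of 20.3%. All 27 vehicle means lay above the background level, and 18 of the 27 PLX5622 means lay at or under it, so for those 18 the size of the fall has background as its limit. Each of the 27 was lower within each of the 4 cartridges that held both diets, against 34.3% of all genes. These cartridges held few naive mice each, and the 27 were called in these same mice, so that share is only a description. The levels of all 6 PLX5622 mice lay below all 7 vehicle mice in 22 of the 27, and in 24 of all 799 genes (3.0%). The other 2, Ly6g and Lox, were not called. No gene had all PLX5622 mice above all vehicle mice (0.0%). The median change over all genes was -0.14, with 684 estimates below 0 and 115 above, and centring each library on its own median, which sets that shift near 0 by construction, gave 0.03. Without mice 690, 713 and 731, chosen for their low library medians, 22 genes were called, all of them among the 27.

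**Figure D1:**
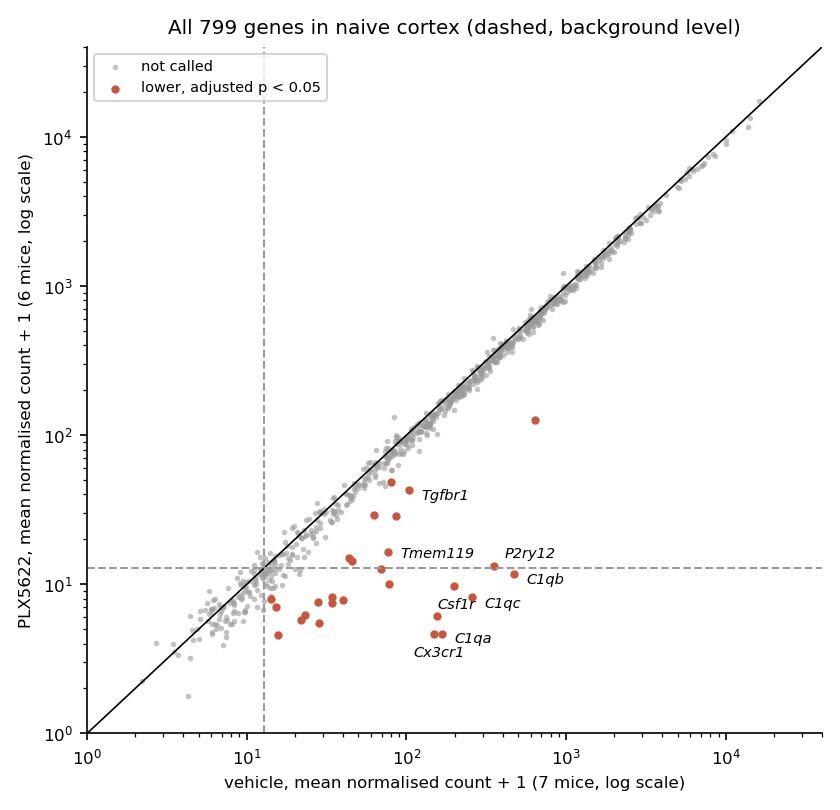
Mean normalised count plus 1 of each of the 799 genes in naive vehicle mice (7, horizontal log axis) and naive PLX5622 mice (6, vertical log axis). The diagonal marks equal levels, dashed lines mark the background level, and red points are the 27 genes lower on PLX5622, which leave the diagonal downwards while no gene leaves it upwards to the same extent.

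The first group was the CSF1 receptor, its ligand and the transcription factors that macrophages need, of which 3 of 5 measured genes fell and 0 rose, with a median of -1.11 (all genes, -0.14). Csf1r, the target of the drug, ran from 169 to 225 on vehicle (median 196) and from 5.57 to 15.7 on PLX5622 (median 7.66). Every PLX5622 mouse lay far below every vehicle mouse, with a fold change of -4.37 ± 0.37 (adjusted p = 1.01e-13). Spi1, which codes for PU.1, the factor that drives macrophage and microglial genes, ran from 21.7 to 35.2 on vehicle (median 27.6) and from 4.46 to 9.23 on PLX5622 (median 6.52). The diets did not overlap, and Spi1 fell by 1.85 ± 0.34 (adjusted p = 6.25e-05). Irf8, a partner factor of PU.1, stood lower at both ends: 7.92 to 19.3 on vehicle (median 13.4) and 2.77 to 11.7 on PLX5622 (median 4.87). The ranges of Irf8 overlapped, and its fall of 1.11 ± 0.33 was the weakest call of the 27 (adjusted p = 0.0377).

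The ligand did not follow its receptor past the threshold. Csf1 ran from 142 to 236 on vehicle (median 190) and from 114 to 233 on PLX5622 (median 162), overlapping over most of the range, with a change of -0.18 ± 0.23 (adjusted p = 0.772, 95% interval -0.65 to 0.29). Csf2rb, the shared beta chain of the IL-3, IL-5 and GM-CSF receptors, was near background on both diets (medians 9.31 and 6.32) and was not called (-0.54 ± 0.45). Of the receptor kinases related to CSF1R, Pdgfrb of pericytes (medians 161 on vehicle and 156 on PLX5622) and Flt1 of endothelium (176 and 158) were measured, and neither was called. Their 95% intervals were -0.43 to 0.27 for Pdgfrb and -0.51 to 0.50 for Flt1.

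PU.1 binds purine-rich DNA around a GGAA core, so the promoters of genes that fell with Spi1 were searched for 2 letter strings of that kind, AGGAAGT and GAGGAA, on both strands. The 250 bases before 1 transcript start per gene were read from RefSeq (GRCm38.p6), where 19 of the 27 called genes had an entry. That start need not be the gene's outermost one: the stretch of Fcrls lies mostly inside the annotated gene and is not shown, and that of C1qc overlaps the gene's first bases. AGGAAGT was found in 5 of those 19 (26.3%: P2ry12, Fcrls, Il6ra, C1qb and C1qc) and in 7.69% of 32851 promoters of all genes. GAGGAA was found in 10 of 19 (52.6%) and in 23.3% of all. The strings are short, a match is not a binding site, and the shares are given as a description. The called genes were drawn from the measured genes only, whereas the comparison share is over promoters of all genes. No share was worked out for the measured genes that were not called. Whether the strings are more frequent in called genes than in other measured genes was therefore not tested. The promoters below are those of 3 genes with AGGAAGT and, beside them, of Cx3cr1, one of the genes that fell most, in which neither string was found. Each is printed 5′ to 3′ along the gene's strand, with capitals for a match in either orientation (ACTTCCT and TTCCTC are the same strings read on the other strand, and in C1qc the pair overlap).

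P2ry12, chr3:59262986-59263235, minus strand: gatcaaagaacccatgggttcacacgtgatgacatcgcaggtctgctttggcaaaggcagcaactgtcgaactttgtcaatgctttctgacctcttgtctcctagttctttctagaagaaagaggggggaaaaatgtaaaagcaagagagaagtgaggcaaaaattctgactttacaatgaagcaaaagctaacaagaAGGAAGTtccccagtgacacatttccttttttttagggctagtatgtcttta
C1qb, chr4:136886201-136886450, minus strand: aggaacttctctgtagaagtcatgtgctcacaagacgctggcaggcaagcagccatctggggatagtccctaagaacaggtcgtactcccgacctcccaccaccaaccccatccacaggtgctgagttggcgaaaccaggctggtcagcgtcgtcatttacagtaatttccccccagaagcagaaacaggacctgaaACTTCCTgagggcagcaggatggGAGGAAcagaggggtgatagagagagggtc
C1qc, chr4:136892915-136893164, minus strand: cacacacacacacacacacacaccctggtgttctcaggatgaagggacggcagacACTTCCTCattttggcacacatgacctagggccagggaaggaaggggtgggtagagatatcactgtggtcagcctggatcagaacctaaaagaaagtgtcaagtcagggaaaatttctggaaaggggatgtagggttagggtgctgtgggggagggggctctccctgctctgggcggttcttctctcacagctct
Cx3cr1, chr9:120068297-120068546, minus strand: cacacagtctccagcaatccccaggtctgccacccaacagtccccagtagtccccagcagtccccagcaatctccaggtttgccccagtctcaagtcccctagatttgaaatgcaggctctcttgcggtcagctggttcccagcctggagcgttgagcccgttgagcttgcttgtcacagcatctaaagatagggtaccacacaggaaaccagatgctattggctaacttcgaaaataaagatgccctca

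In P2ry12 the string ends 46 bases before that transcript start, in C1qb the 2 matches lie 25 and 47 bases before it, and in C1qc 188 and 189.

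The homeostatic microglial genes, those that mark the resting state, formed the most uniform group: 7 of 7 measured genes fell, with a median of -2.44. P2ry12, the purinergic receptor that steers microglial processes towards ATP, ran from 282 to 476 on vehicle (median 315) and from 7.91 to 19.4 on PLX5622 (median 10.3), a change of -4.82 ± 0.27 (adjusted p = 7.96e-21). Cx3cr1, the receptor for neuronal fractalkine, ran from 122 to 173 (median 142) on vehicle and from 0.750 to 6.27 (median 3.84) on PLX5622, a change of -5.13 ± 0.34 (adjusted p = 8.59e-18). In both genes the highest PLX5622 mouse was more than an order of magnitude below the lowest vehicle mouse. Fractalkine itself, Cx3cl1, which neurons make, had medians of 3522 and 2560 and was not called (-0.19 ± 0.11, adjusted p = 0.6).

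Tmem119, a membrane protein that separates microglia from other macrophages, ran from 66.3 to 90.4 on vehicle (median 75.1) and from 11.1 to 20.2 on PLX5622 (median 14.7), a change of -2.27 ± 0.18 (adjusted p = 1.51e-14). Fcrls, an Fc receptor-like protein of microglia, ran from 63.3 to 110 against 4.46 to 12.0 (-2.91 ± 0.48, adjusted p = 8.23e-06). Cd33, a sialic acid-binding receptor, ran from 25.3 to 43.9 against 4.30 to 8.30 (-2.12 ± 0.27), again with no overlap. Tgfbr1, the type I receptor for TGF-beta, which maintains microglial identity but is made by other brain cells too, showed the smallest fall of the group: 77.0 to 135 on vehicle (median 108) and 32.6 to 50.3 on PLX5622 (median 40.9), a change of -1.31 ± 0.16 (adjusted p = 3.03e-09). Tgfbr2, its partner receptor, had medians of 199 and 146 and was not called (-0.47 ± 0.19, adjusted p = 0.335).

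Of 9 measured genes of the complement list 5 fell and 0 rose, with a median of -2.04. The 5, the list median and the 27 called genes include Itgam, whose protein was the stain used to find regions. Hc, which codes for complement C5, was measured but was not on that list. It stood under the background level on both diets (medians 5.12 and 7.81) and was not called (0.59 ± 0.35, adjusted p = 0.6). The 3 chains of C1q, the molecule that opens the classical pathway and tags synapses for removal in development, were among the genes that fell most. C1qb ran from 406 to 529 on vehicle (median 471) and from 3.82 to 28.5 on PLX5622 (median 6.60), C1qa from 136 to 190 (median 161) and from 0 to 6.00 (median 3.93), and C1qc from 201 to 313 (median 252) and from 2.09 to 13.5 (median 7.02). All 3 chains were separated between diets with no overlap, and their PLX5622 means were 2.30%, 2.19% and 2.81% of vehicle. The fold changes were -5.59 ± 0.56 for C1qb, -5.31 ± 0.51 for C1qa and -5.09 ± 0.61 for C1qc (adjusted p = 1.45e-11, 6.52e-12 and 3.13e-09).

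C3ar1, the receptor for C3a, fell by 2.04 ± 0.47 (15.7 to 28.6 on vehicle, 3.00 to 11.1 on PLX5622, adjusted p = 0.00217). Itgam, the CR3 alpha chain that was also the stain used to find regions, ran from 128 to 180 on vehicle and from 2.77 to 7.91 on PLX5622, given here as a description. The 4 genes of the complement list that were not called were low on both diets: C3 (medians 6.14 and 3.21), C6 (4.28 and 3.76), Itgax (6.91 and 6.99) and C4a (16.9 and 14.9). C4a is nearly identical to C4b, so its value is uncertain.

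Among phagocyte receptors and lysosomal genes 3 of 15 fell and 0 rose, with a median of -0.29. Trem2, the lipid and debris receptor of microglia, ran from 43.4 to 103 on vehicle (median 67.5) and from 6.76 to 19.4 on PLX5622 (median 10.6), a change of -2.57 ± 0.37 (adjusted p = 3.73e-07). Its signalling partner Tyrobp, the DAP12 adaptor, ran from 23.9 to 47.5 (median 29.7) and from 2.64 to 16.6 (median 5.97), a change of -2.21 ± 0.34 (adjusted p = 2.53e-06). Cd68, a lysosomal protein of phagocytes, ran from 32.2 to 58.6 (median 36.2) and from 8.99 to 19.4 (median 13.9), a change of -1.56 ± 0.32 (adjusted p = 0.000497). The diets did not overlap in any of these 3. The 12 genes of this list that were not called differed in kind. Axl, a receptor used by phagocytes, had medians of 54.2 and 46.9 (-0.37 ± 0.20, adjusted p = 0.569). Cd14, another such receptor, stood under the background level on both diets (medians 10.2 and 5.90). Others are genes that most cells carry. Lamp1, a lysosomal membrane protein, had medians of 986 and 812 (-0.34 ± 0.16, adjusted p = 0.467), Npc1, a cholesterol exporter, 369 and 349, and Atp6v0c, a subunit of the proton pump, 14282 and 12485. Grn, which codes for progranulin, had medians of 94.0 and 62.4 and was not called (-0.50 ± 0.22, adjusted p = 0.425).

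Of 32 genes of innate sensing and activation 4 fell and 0 rose, with a median of -0.32. Ncf1, the organising subunit of the phagocyte NADPH oxidase, ran from 31.4 to 50.7 on vehicle (median 38.6) and from 2.77 to 9.84 on PLX5622 (median 7.10), a change of -2.43 ± 0.30 (adjusted p = 1.24e-08). Tgfb1, the cytokine TGF-beta 1, ran from 72.3 to 117 (median 78.6) and from 19.4 to 38.7 (median 27.4), a change of -1.58 ± 0.23 (adjusted p = 5.45e-07). P2rx7, an ATP-gated channel, showed the smallest fall of all 27: from 69.3 to 87.9 (median 79.5) on vehicle to 39.7 to 61.5 (median 44.1) on PLX5622 (-0.74 ± 0.18, adjusted p = 0.00376). These 3 were separated without overlap. Cd86, a co-stimulatory ligand, overlapped slightly (9.42 to 44.6 and 2.09 to 11.1) and fell by 2.01 ± 0.34 (adjusted p = 1.19e-05). The related channel P2rx4 was not called (medians 37.2 and 33.0, -0.06 ± 0.18).

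Of the 28 genes of innate sensing that were not called, 12 stood under the background level on both diets, which left little room to measure a fall. They include Tlr2 (medians 7.23 and 4.03), Cybb, the catalytic subunit of the NADPH oxidase (6.14 and 2.66), and the cytokines Il10 and Tnf. Tlr4, the endotoxin receptor (medians 18.1 and 9.05), Nlrp3, the inflammasome sensor (13.9 and 6.25), and Tnfrsf1b, a TNF receptor (18.2 and 8.80), had estimates of -0.72, -0.75 and -1.02 and adjusted p of 0.486, 0.486 and 0.421. Aif1, which codes for the common microglial stain IBA1, stood near the background level on both diets in these data, at 7.92 to 24.1 on vehicle (median 16.3) and 7.66 to 19.4 on PLX5622 (median 11.4), and was not called (-0.30 ± 0.25, adjusted p = 0.672).

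Of the 5 called genes on no list, 4 are described here. Stab1, a scavenger receptor of macrophages, ran from 19.0 to 61.7 on vehicle (median 51.5) and from 10.5 to 17.2 on PLX5622 (median 12.9), a change of -1.61 ± 0.21 (adjusted p = 6.05e-08). Il6ra, the IL-6 receptor alpha chain, ran from 47.0 to 78.5 (median 63.1) and from 19.5 to 48.0 (median 23.6), with 1 PLX5622 mouse reaching the vehicle range, and changed by -1.11 ± 0.25 (adjusted p = 0.00217). Slc11a1, the metal transporter of phagosomes, fell by 1.87 ± 0.39 with ranges that just touched (6.42 to 22.5 and 0 to 6.59, adjusted p = 0.000492). Ang, a secreted ribonuclease of a family of close copies in the mouse, so that its value is uncertain, overlapped (7.24 to 22.9 and 2.09 to 11.1) and changed by -0.96 ± 0.28 (adjusted p = 0.0344).

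The calls of Ang and Irf8 were lost in more settings than those of the other 25 genes. Leaving out 1 mouse at a time, the adjusted p of Ang passed 0.05 without PLX5622 mouse 690, 705 or 713 or vehicle mouse 695, 706 or 732, and that of Irf8 without PLX5622 mouse 690, 698, 705 or 731 or vehicle mouse 691, 706, 732 or 737. Over all settings in which the call was lost the adjusted p ran from 0.0516 to 0.363 for Ang and from 0.0563 to 0.474 for Irf8. Without the 3 mice of low library median, Cd68 (adjusted p = 0.0586), C3ar1 (0.0949) and P2rx7 (0.117) were lost as well.

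**Figure D2:**
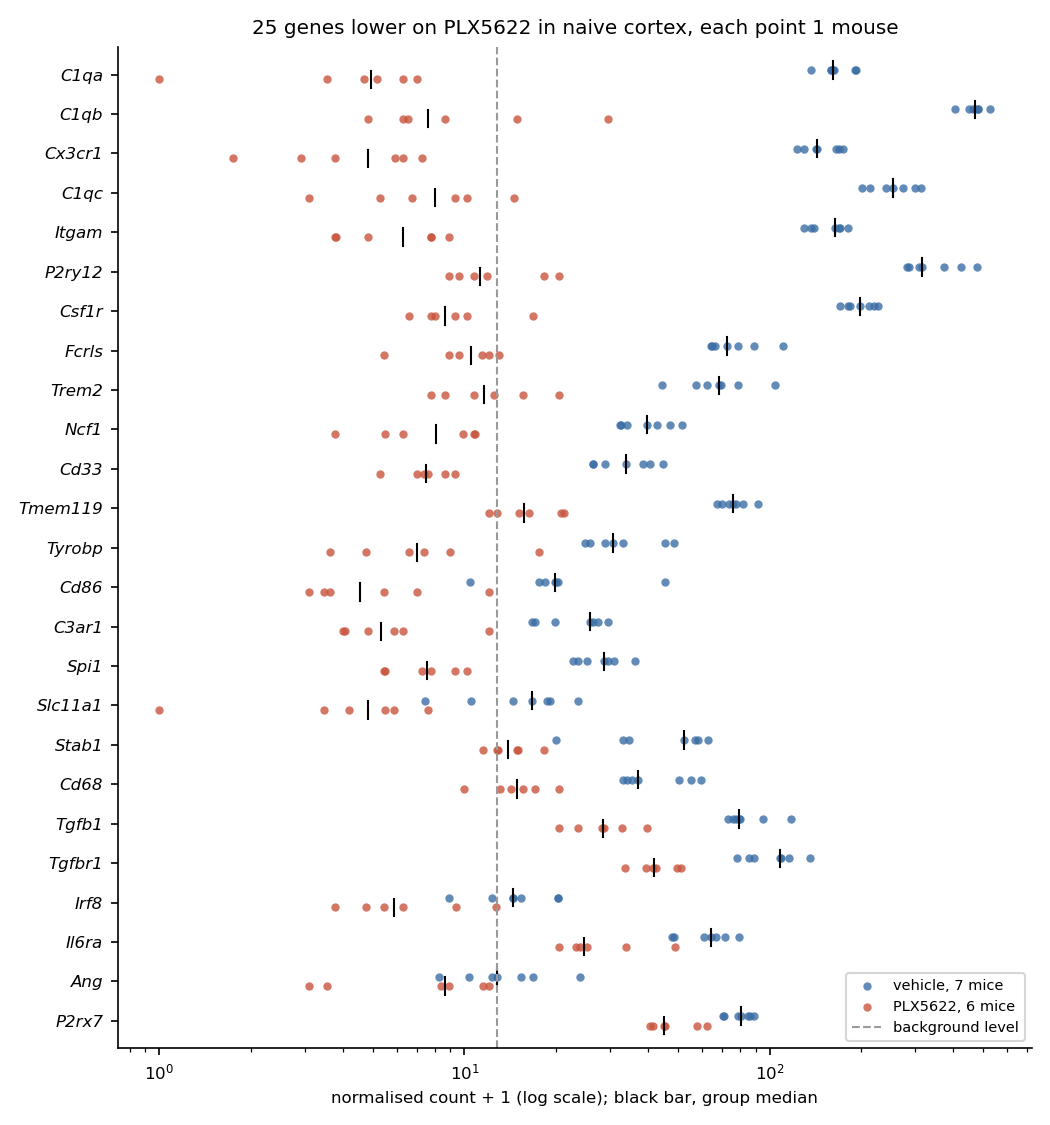
Normalised count plus 1 (log axis) of 25 of the 27 genes lower on PLX5622 in each of the 7 vehicle mice (blue) and 6 PLX5622 mice (red), with the group median as a black bar and the background level dashed. The C1q chains, Cx3cr1, Itgam, P2ry12 and Csf1r are the most widely separated. Tgfbr1, Tgfb1, P2rx7 and Il6ra stay above background in every PLX5622 mouse. The diets overlap in Cd86, Slc11a1, Il6ra, Ang and Irf8.

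No PLX5622 mouse was the highest throughout. Taken as a percent of the vehicle mean, the median over the 27 genes was 19.99% in mouse 690, 22.9% in 698, 19.2% in 705, 15.8% in 713, 17.3% in 731 and 16.7% in 736. Mouse 698 was the highest of the 6 for 9 genes and the lowest for 7, in the library with the coarsest counting. Mice 731 and 736 were each the highest for 6 genes and 690, 705 and 713 for 3, 2 and 1. Mouse 731 held the highest C1qb (28.5), C1qc and Csf1r (15.7) and at the same time the lowest Cx3cr1 (0.750). Mouse 698 held the highest Tyrobp (16.6) and P2ry12 (19.4), and its C1qa and Slc11a1 counts were 0, which allows up to 8.30 normalised counts (3 counts) at its depth.

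Cell type markers gave the same picture in sum. The 11 measured markers of microglia were all called, and their summed level ran from 2252 to 2794 on vehicle (mean 2481) and from 160 to 313 on PLX5622 (mean 214), which is 8.64% of vehicle and includes background. All 11 markers lay above the background level on vehicle and 3 did on PLX5622, and none was at 0 in every mouse. The labels state that this dose and time deplete about 96% of microglia, a count of cells from earlier work rather than of RNA. In pieces of whole cortex, fewer cells of a type and less RNA per cell cannot be told apart.

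**Figure D3:**
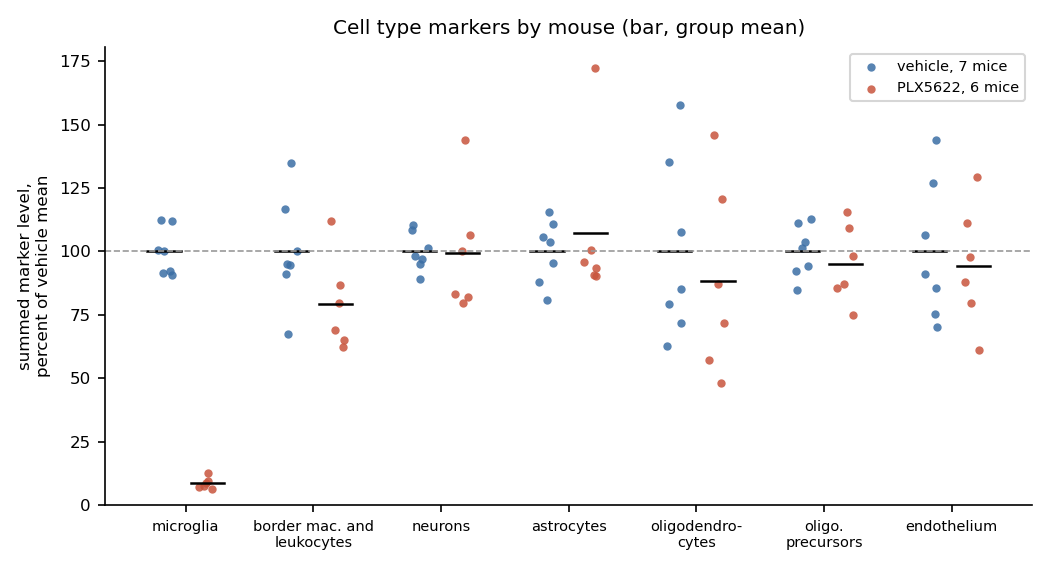
Summed level of the cell type markers of each mouse as a percent of the vehicle mean (7 vehicle mice in blue, 6 PLX5622 mice in red, bars are group means). The microglial sum is separated without overlap, and the sums of the other 6 types overlap between the diets.

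Markers of the other macrophages and of blood leukocytes were low on both diets, so the data say little about them. Their summed level of 5 markers ran from 31.7 to 63.4 on vehicle and from 29.2 to 52.6 on PLX5622 (79.2% of vehicle), with 1 marker above background on vehicle and 0 on PLX5622. In the longer list of such genes 0 of 8 were called, with a median of -0.15, and 6 of the 8 lay under the background level on both diets. Mrc1, the mannose receptor of border macrophages, had medians of 7.54 and 4.24, Cd163, a haemoglobin scavenger receptor of the same cells, 7.23 and 8.52, and Ccr2, the receptor of incoming monocytes, 9.39 and 5.62. Cd4 had medians of 16.1 and 10.9 and was not called (-0.68 ± 0.33, adjusted p = 0.517).

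No astrocyte gene was called (0 of 9, median -0.02). Gfap, the intermediate filament that rises in reactive astrocytes, ran from 248 to 554 on vehicle (median 318) and from 146 to 645 on PLX5622 (median 423). The groups overlapped fully, with a change of 0.29 ± 0.57 (adjusted p = 0.856) and a 95% interval of -0.86 to 1.44. Slc1a2, the main glutamate transporter of astrocytes, had medians of 16691 and 15190 (0.01 ± 0.18), and Gja1, the gap junction protein connexin 43, 421 and 337 (-0.24 ± 0.20). The reactive astrocyte list had 0 of 10 called (median -0.22), including Nes, the filament nestin (65.1 and 55.5, adjusted p = 0.523), and Stat3, a factor of the reactive state (125 and 93.3, adjusted p = 0.6). Apoe, a lipid carrier that astrocytes make in quantity and microglia make too, had medians of 573 and 527 (-0.15 ± 0.18). The astrocyte marker sum was 107% of vehicle on PLX5622, or 15786 to 17584 in 5 mice and 30129 in mouse 698, against 14103 to 20191 on vehicle.

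In the oligodendrocyte and myelin list 0 of 14 were called. All 14 estimates were below 0, as were 684 of all 799. The list median was -0.23, and -0.07 with the libraries centred on their own medians. Mbp, myelin basic protein, ran from 4534 to 11256 on vehicle (median 6178) and from 3514 to 10694 on PLX5622 (median 5745), so mice of 1 diet differed among themselves by more than the diets did (-0.25 ± 0.25, adjusted p = 0.697). Mog, a surface protein of myelin, had medians of 297 and 214 (-0.33 ± 0.22). Of the genes of oligodendrocyte precursors 0 of 4 were called, among them Olig2, a lineage factor (medians 126 and 119), and Tnr, a matrix protein (649 and 492). Endothelial and pericyte genes gave 0 of 14 (median -0.02), with Tie1, a receptor of endothelium, at 61.0 and 63.7.

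Neuronal genes were not called on any list. The counts were 0 of 9 for pan-neuronal genes (median -0.08), 0 of 15 for synaptic vesicles and release (-0.09), 0 of 18 for glutamate receptors (-0.06), 0 of 16 for GABA and interneurons (-0.14) and 0 of 10 for activity-regulated genes (-0.09). Syt1, the calcium sensor of transmitter release, ran from 10337 to 12216 on vehicle (median 10566) and from 8506 to 17691 on PLX5622 (median 9760), the highest being mouse 698. Map2, a dendritic microtubule protein, had medians of 921 and 751 and was not called (-0.28 ± 0.12, adjusted p = 0.425). Rab3a, a synaptic vesicle GTPase, had medians of 1743 and 1481 and was not called either (-0.31 ± 0.15, adjusted p = 0.523). Gad1, the GABA-making enzyme, had medians of 2299 and 2349 (-0.03 ± 0.13). The neuron marker sum was 99.3% of vehicle on PLX5622, or 16234 to 21708 in 5 mice and 29285 in mouse 698, against 18137 to 22512 on vehicle.

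Further lists held few or no calls. Apoptosis and cell stress genes gave 0 of 18 (median -0.14), with Casp8, an initiator caspase, at medians of 16.9 and 10.5 (-0.66 ± 0.27, adjusted p = 0.352) and Apaf1, the apoptosome scaffold, at 25.9 and 19.4 (-0.56 ± 0.25, adjusted p = 0.433). Of 17 growth and trophic factors 1 was called, Tgfb1. Genes of interferon response and antigen presentation gave 0 of 3. The 11 reference genes of the panel gave 0 calls and a median of -0.08. At an unadjusted p under 0.05 limma had 1 gene lower in each of the border macrophage, reactive astrocyte, pan-neuronal, synaptic vesicle and GABA lists (Cd4, Nes, Map2, Rab3a and Gabrr3) and 2 in the apoptosis list. The other lists without a call had 0, no list had a gene higher, and DESeq2 and edgeR called none of these genes.

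**Figure D4:**
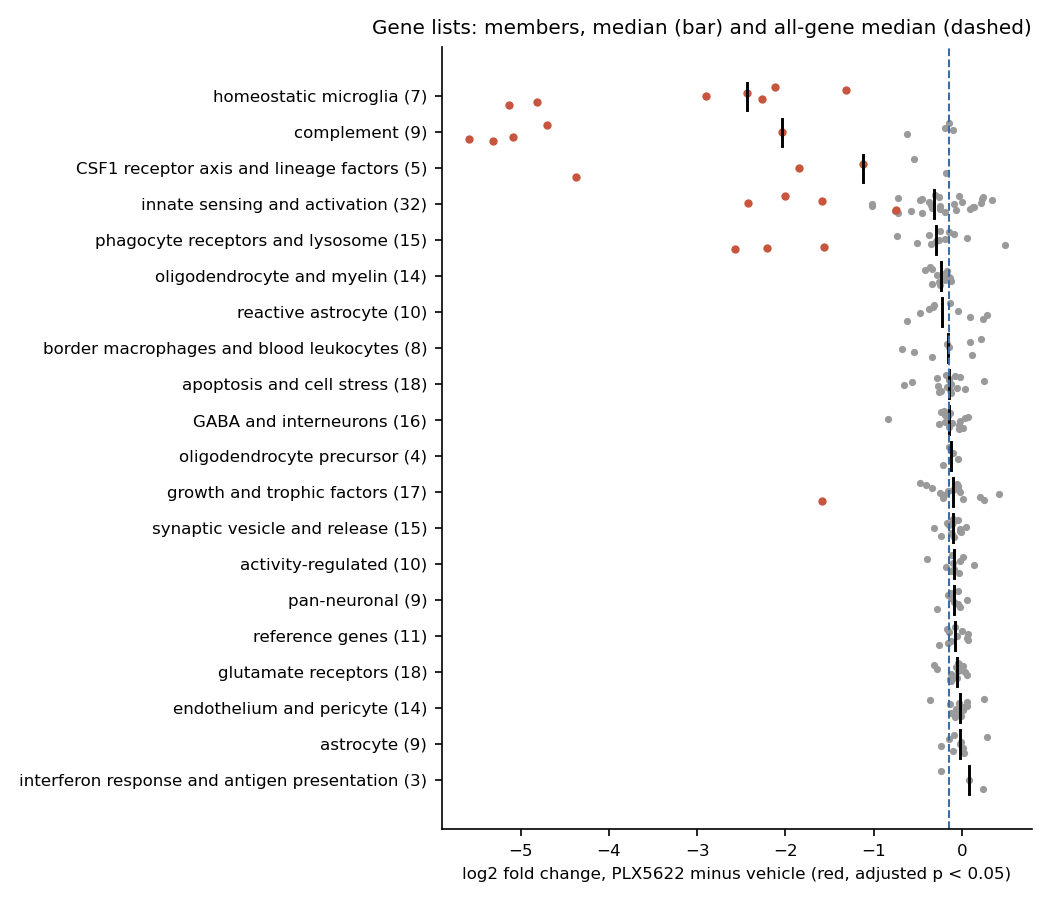
Log2 fold change, PLX5622 minus vehicle, of each measured gene of the gene lists with at least 3 measured members (number in parentheses), with the list median as a black bar and the all-gene median of -0.14 dashed. Called genes are red: they sit in the microglial, complement, CSF1 receptor, phagocyte and innate lists, plus Tgfb1 among growth factors, and the other lists lie around the all-gene median.

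Just outside the threshold stood Scamp2, a carrier protein of secretory membranes (43.9 to 96.8 on vehicle, 33.0 to 72.0 on PLX5622, -0.71 ± 0.22, adjusted p = 0.0589), and Man2b1, lysosomal alpha-mannosidase (119 to 203 and 57.0 to 156, -0.59 ± 0.19, adjusted p = 0.0925). On the upper side the smallest p belonged to Cntf, a trophic factor of glia, which ran from 10.7 to 25.6 on vehicle (median 15.8) and from 16.6 to 27.7 on PLX5622 (median 21.0). The ranges overlapped and Cntf was not called (0.42 ± 0.21, adjusted p = 0.523). The next were Grin3b, Hc, Gata2, Sf3b4 and Ret, with estimates from 0.32 to 0.59, adjusted p of 0.6 to 0.652, and medians of 5.12 to 23.8 on either diet.

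The injured mice give the same diet contrast in other animals, although the 13 naive mice share the cartridge terms and the estimate of spread with them in the fit. Of the 27 genes, 24 were also lower at 1 day after TBI (88.9% of the 27, and 75% of the 32 lower genes of that day, 4.01% of all), 26 at 7 days (96.3%, and 78.8% of 33, 4.13%) and 20 at 30 days (74.1%, and 100% of 20, 2.5%). All 27 estimates were below 0 on each day. The genes not called were Tgfb1, P2rx7 and Ang at 1 day, Irf8 at 7 days, and Tyrobp, Spi1, Slc11a1, Cd68, C3ar1, P2rx7 and Irf8 at 30 days. The median fold change of the 27 was -2.21 in naive mice and -2.08, -2.03 and -1.41 at 1, 7 and 30 days, and at 30 days 26 of the 27 estimates were smaller in size than in naive mice.

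A test of the difference itself, the diet effect after TBI minus that in naive mice, uses the naive mice on each day, so the 3 days are not independent. It called 1 gene at 1 day (0.125%), 0 at 7 days (0.0%) and 3 at 30 days (0.375%). For 7 days limma had 34 genes at an unadjusted p under 0.05, and DESeq2 and edgeR called 0. Cx3cr1 ran from 9.08 to 51.2 (median 27.6) on PLX5622 at 30 days, above all 6 naive PLX5622 mice, and from 149 to 221 (median 184) on vehicle. Its diet effect was -2.95 ± 0.36 at 30 days against -5.13 ± 0.34 without injury, a difference of 2.18 ± 0.49 (adjusted p = 0.0398). C1qa reached 5.78 to 184 (median 54.8) and C1qb 9.08 to 457 (median 199) on PLX5622 at 30 days, wide ranges that start near the naive level. Their differences were 3.05 ± 0.74 and 3.29 ± 0.81 (adjusted p = 0.043 for each). At 1 day the gene was Ccl12, a monocyte-attracting chemokine. It was under the background level in naive mice on both diets in its median (8.19 on vehicle and 4.00 on PLX5622), ran from 22.8 to 204 on vehicle at 1 day (median 74.3) and from 0 to 8.87 on PLX5622, and differed by -3.70 ± 0.78 (adjusted p = 0.0142).

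The counts of called differences changed when 1 naive mouse was left out. The count at 30 days was 0 without PLX5622 mouse 705 or 731 or vehicle mouse 695, 706, 714, 737 or 742, and 1 without PLX5622 mouse 713 or 736 or vehicle mouse 691 or 732, and 2 without PLX5622 mouse 690 or 698. The count at 1 day was 0 without PLX5622 mouse 736. Time on the diet and the day after injury go together here and cannot be told apart.

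**Figure D5:**
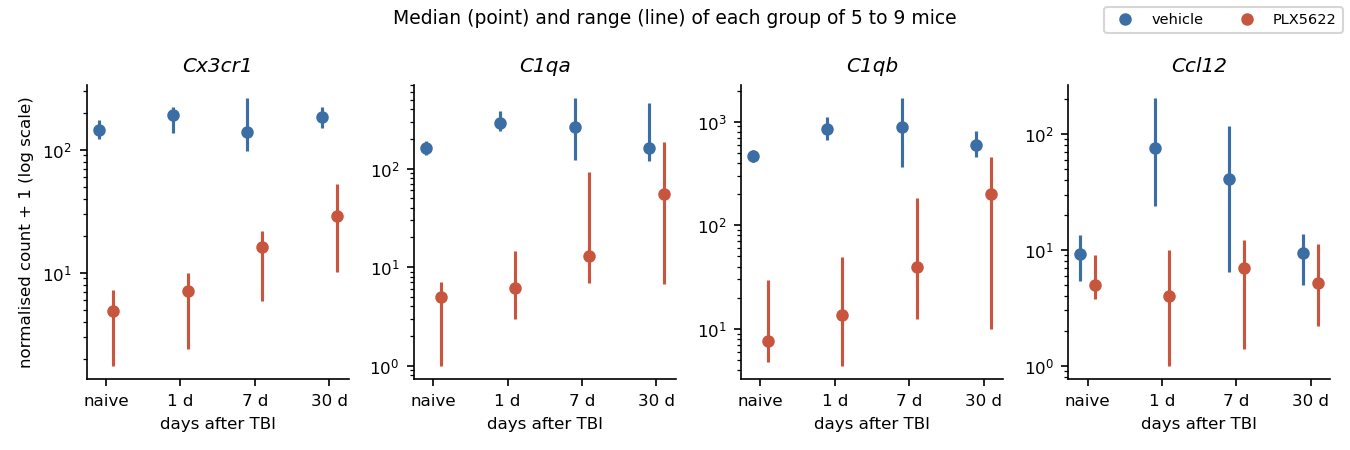
Normalised count plus 1 (log axis) of Cx3cr1, C1qa, C1qb and Ccl12 in naive mice and at 1, 7 and 30 days after TBI, as group median (point) and range (line) on vehicle (blue) and PLX5622 (red). The PLX5622 medians of Cx3cr1, C1qa and C1qb are lowest in naive mice and highest at 30 days, and Ccl12 is raised on vehicle at 1 and 7 days.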

How the data were processed

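The authors deposited normalised counts, a signal that is never negative: nCounter barcode counts divided by 1 size factor per mouse. The submitters' processing notes name DESeq2 without a version, and the sources used here do not say whether background was subtracted. Per the labels' protocols, RNA was extracted from cortex cut from frozen sections and pre-amplified, with cycles set from Gapdh and Actb, so levels between mice also carry that step. Dividing by the value of 1 count gave whole numbers for 100% of values in every mouse (tolerance 0.02 of a count), used for depth, DESeq2 and edgeR. Of the 799 symbols 792 matched a current RefSeq symbol.

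The main test was limma 3.58.1 (R 4.3.3; lmFit, then eBayes, trend on) on log2(normalised count + 1), over all 55 mice, with the cartridge as covariate beside the 8 group means. No low genes were left out. P-values are two-sided and adjusted by Benjamini-Hochberg over 799 genes, with a threshold of 0.05. DESeq2 1.42.0 and edgeR 4.0.16 on the recovered counts, other covariates, pseudocounts, filters, scalings and leaving out each naive mouse were alternatives. Leaving out 3 PLX5622 mice with a library median under 160 was added after seeing the data. The design allowed for raw or normalised counts, and the values were normalised. The limma steps were tested on simulated data.

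The members, gene lists, tests and the rule for named genes were chosen with earlier results of these data known. The rule names every called gene, the 6 genes with the smallest p among those higher on PLX5622, all measured members of the CSF1 receptor, homeostatic microglia and complement lists, and the 2 genes with the smallest p of each other list, plus a few standard markers. Genes named outside the rule (such as Ly6g, Lox, Scamp2, Man2b1, Lamp1, Npc1, Atp6v0c, Slc1a2, Syt1, Gad1, Mog, Tie1 and members of the innate and border macrophage lists) were chosen after their values were seen. Among 36 pairs of mice of the same naive group, the lowest chi-square per degree of freedom of the counts was 5.20, so no pair agreed within sampling noise. A few measured genes are not reported here by name, and they stay in the counts, list medians and marker sums.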

Additional observations from a re-analysis of the deposited data

Results flagged for a closer look

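Among the 174 groups of values examined (each named gene, marker sum and depth measure in each naive diet group), 9 held 1 mouse far from the rest of its group, and chance alone marks about 1 in 20. On PLX5622, mouse 698 had C1qa at 0 (the other 5 mice, 2.55 to 6.00), Mrc1 at 11.1 (3.75 to 5.28), Creb1 at 257 (145 to 159) and a summed level of astrocyte markers of 30129 (15786 to 17584), in the library with the lowest total count. Mouse 731 had Hc at 2.25 (6.96 to 11.9), Map2 at 1082 (662 to 791) and Casp8 at 18.7 (9.23 to 11.5). Mouse 713 had Gfap at 146 (412 to 645). On vehicle, mouse 737 had Sf3b4 at 17.4 (8.17 to 11.1). Of these genes C1qa alone was called between the diets. On PLX5622 all C1qa and Mrc1 values lay under the background level. Mrc1 in mouse 698 was 4 counts, against 4 to 7 in the other 5 mice, and Hc in mouse 731 was 3 counts.

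The diet effect differed between injured and naive mice for 4 genes by the test of the difference in limma: Ccl12 at 1 day (-3.70, adjusted p = 0.0142), and Cx3cr1 (2.18, adjusted p = 0.0398), C1qa (3.05) and C1qb (3.29, adjusted p = 0.043 for both) at 30 days. A value below 0 means a larger deficit on PLX5622 after injury than without it.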

How the results depend on the processing

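The number of genes lower on PLX5622 in naive mice stayed between 22 and 34 over 27 alternatives (25 to 30 leaving out 1 mouse at a time), and the number higher was 0 in all of them. The fold changes of all 27 genes stayed below 0. Of the 27, 22 kept their call in every alternative in which they were tested, and Ang, Irf8, Cd68, C3ar1 and P2rx7 did not. Leaving out genes with a mean under 20 tested 23 of the 27 and called all 23. Man2b1 and Scamp2 passed the threshold in 4 alternatives each (adjusted p 0.015 to 0.0467 and 0.0174 to 0.0384), and Gabrr3 (0.00896) and Tgfbr2 (0.0191) did with the 13 naive mice alone.

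The tests of a changed diet effect moved more, and the cause was not tested. At 1 day the count of 1 became 0 with low genes left out, 0 without the 3 PLX5622 mice of low library median, and 0 to 1 leaving out 1 mouse at a time. At 30 days the count of 3 became 1 with no covariate, with the extraction batch as covariate, with the robust fit and without the 3 mice of low library median, 0 with a pseudocount of 10 and with no trend, 5 with DESeq2 and with edgeR, and 0 to 2 leaving out 1 mouse at a time. At 7 days the count was 0 in the main setting and in every alternative that was run for it.

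No paired analysis was possible because each mouse number names 1 animal and the diet groups share none. Genes under the background level on both diets had little room to show a fall, and 6 against 7 mice leave wide intervals for genes of glia and vessels.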
